A study of Mus musculus with 6 samples.

Results

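The photoreceptor fate transcription factors examined here are the products of 8 genes, Otx2, Crx, Nrl, Nr2e3, Prdm1, Rorb, Mef2d and Esrrb, chosen by name out of the 39179 gene rows of the deposited count files. All 8 were found by identifier and all 8 passed the filter on low counts, as did 16691 genes in all. The counts come from bulk RNA sequencing of mouse retina at postnatal day 0.5, of mixed and mostly CD-1 background. The tested animals were 3 conditional knockouts, labelled Lhx2 lox/lox; Pdgfrα-Cre and called cKO here, and the controls were 3 animals labelled Lhx2 lox/lox, which carry the floxed alleles without Cre. Lhx2 encodes a LIM homeodomain protein of the eye field and of retinal progenitors, and the comparison asks how retinal transcripts change when it is deleted in cells in which the Pdgfra promoter has driven Cre recombinase. Which retinal cells recombined is not given in the labels, and whole retinas were sequenced, so a change in RNA per cell and a change in the number of cells of a type cannot be told apart.

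Rods and cones arise from progenitors that leave the cell cycle and switch on Otx2, a homeodomain factor required for photoreceptor and bipolar fates. Otx2 turns on its close relative Crx, which drives the genes of the photoreceptor outer segment, and Prdm1 (Blimp1), a zinc finger repressor that holds the bipolar programme in check. Rorb, an orphan nuclear receptor, acts upstream of Nrl, a leucine zipper factor of the Maf family that sets rod against cone identity, and Nrl in turn activates Nr2e3, a nuclear receptor that represses cone genes in rods. Mef2d, a MADS box factor, works with Crx at photoreceptor genes, and Esrrb, an oestrogen-related receptor, is a rod factor downstream of Nrl. At birth the mouse retina is making rods in large numbers, while cones have largely been born earlier.

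The 6 libraries held 31483170 to 66947478 reads counted on genes. They fell into 2 sets that cross genotype. In set A (cKO 1, cKO 2 and control 2) 3.133 to 3.203% of all deposited counts were ambiguous between genes, and in set B (cKO 3, control 3 and control 4) 2.631 to 2.692% were. The mitochondrial share of gene counts was 1.15 to 1.79% in set A, against 7.14 to 9.55% in set B. The 3 cKO mice and control 3 were female by Xist and Y-linked transcripts, and controls 2 and 4 were male, so that in set A genotype and sex cannot be told apart. Lhx2 itself, whose gene-level counts may include reads of exons that are not deleted, was at 252, 287 and 224 CPM (reads of a gene relative to the library total, scaled by TMM) in cKO 1, 2 and 3, against 398, 266 and 258 CPM in controls 2, 3 and 4. Of 12 lens markers, 10 passed the filter and all of those rose in cKO, with a summed level of 843 to 2240 CPM in cKO retinas and 2.6 to 6.09 CPM in controls. Several of the 10 were near 0 in controls and passed the filter through the cKO libraries alone, so that their direction was fixed by the filter. Among these were Mip (0.0874, 0 and 0 CPM in controls 2, 3 and 4) and Crygs (0.0218, 0.0299 and 0 CPM). All 6 microglial markers also rose, to a summed 58.2 to 76.3 CPM in cKO against 20.8 to 35.1 CPM in controls, and among 6 endothelial markers 4 rose and Kdr fell. Of 5 retinal markers, 3 fell in cKO, Rax and Six6 among them. These marker counts are from the model with library set, in which 6.36% of all genes tested rose and 5.63% fell. The part that the lens, microglial and endothelial cells, or library set and sex, have in the results below was not tested beyond the values given beside them.

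Otx2 was lower in every cKO retina than in every control. Otx2 (ENSMUSG00000021848; GRCm38 chromosome 14, 48657677 to 48673819, minus strand) had 272, 293 and 284 CPM in cKO 1, 2 and 3, against 339, 408 and 473 CPM in controls 2, 3 and 4. The cKO values lay close together and the control values were spread, with the lowest control in set A and the higher pair in set B. Of all 16691 genes tested, 5.54% likewise had all cKO libraries below all controls and 8.38% had them above, as none of the 8 factors did. The means were 283 ± 10.2 CPM in cKO and 407 ± 67.2 CPM in controls (SD, n = 3 each). With library set in the model, edgeR's quasi-likelihood test gave a log2 fold change (cKO over control) of -0.45 (SE 0.11, adjusted p = 0.0317). The change was -0.26 within set A and -0.63 within set B. The call was lost without control 3 (-0.48), without control 4 (-0.39), without cKO 3 (-0.23) and with sex added to the model (-0.38), and over all alternatives the adjusted p in these tests of all genes ranged from 7.8e-05 to 0.455. With genotype alone the log2 fold change was -0.52 (SE 0.20), which did not pass (adjusted p = 0.588, edgeR). Between the females of set B, cKO 3 stood at 284 CPM and control 3 at 408 CPM.

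Otx2 has several start sites, and RefSeq's promoter windows for GRCm38.p6, which run from 250 bases before a start to 50 bases after it, include 4 for this gene. The window below is shown because it holds matches to the cores bound by LIM homeodomain factors such as Lhx2 and by Otx2 and Crx themselves. It lies at chr14:48665060-48665359 on the minus strand and is written 5′ to 3′ along the gene, with every match in capitals.
Otx2 promoter: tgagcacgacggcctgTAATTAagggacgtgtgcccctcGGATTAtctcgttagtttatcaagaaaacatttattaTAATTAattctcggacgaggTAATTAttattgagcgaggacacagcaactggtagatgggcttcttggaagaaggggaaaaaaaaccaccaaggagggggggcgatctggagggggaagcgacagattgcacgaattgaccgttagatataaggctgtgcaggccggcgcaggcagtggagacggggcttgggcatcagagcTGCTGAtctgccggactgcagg
The capitals mark TAATTA, the LIM homeodomain core, starting at -234, -174 and -154 from the start site, TAATCC, the core of Otx2 and Crx, on the opposite strand (written GGATTA) at -211, and TGCTGA, a part of the site of Maf factors such as Nrl, at 29. Both strands were searched, also for AAGGTCA, the core of single nuclear receptors such as Rorb and Esrrb, and for TATTTTT, the inner part of the Mef2 site, which have no match in this window. TAATTA reads the same on both strands, and none of these matches overlap. Over the 32851 windows of the same length, 5.29% hold TAATTA, 0.0487% hold it 3 or more times, 7.06% hold TAATCC, 19.5% hold TGCTGA, 4.72% hold AAGGTCA and 7.75% hold TATTTTT. The cutoff of 3 equals the count in this window, which was picked for its matches, so 0.0487% describes the window and tests nothing. A match describes letters in the window and is not a measured binding site.

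The retinal pigment epithelium also transcribes Otx2. Of 11 of its markers 8 passed the filter and 0 passed the test, and the log2 fold changes of these 8 were all above 0, between 0.28 (Rlbp1) and 1.58 (Tyr). The summed level of all 11 was 205, 220 and 111 CPM in cKO 1, 2 and 3, against 138, 109 and 109 CPM in controls 2, 3 and 4, so that in set A it was higher in both cKO libraries than in the control. Nearly all of it was Rlbp1 (191 and 188 CPM in cKO 1 and 2, against 122 CPM in control 2), which Müller glia and progenitors also transcribe. In cKO 1, Tyr, Tyrp1, Pmel, Mlana, Best1 and Slc45a2 were lower than in control 2, and Rlbp1, Ttr, Mitf, Dct and Rpe65 were higher. In cKO 2 every marker was at or above its level in control 2. Rpe65 was at 0 in 2 cKO and 2 control libraries and reached at most 0.0178 CPM in cKO and 0.0662 CPM in controls. The part of pigment epithelium in the level of Otx2 was not tested further. The RNA antisense to Otx2, Otx2os1, shares 154 exon bases with it and had 7 to 65 reads per library, at most 0.38% of the reads of Otx2.

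Prdm1 was lower in cKO within both library sets. Prdm1 (ENSMUSG00000038151; GRCm38 chromosome 10, 44437177 to 44528501, minus strand) had 76.4, 102 and 129 CPM in cKO 1, 2 and 3, against 126, 187 and 169 CPM in controls 2, 3 and 4. The cKO and control values overlapped over all libraries, because cKO 3, of set B, stood just above control 2, of set A. Within each set every cKO library lay below every control, as was true of 23.8% of all genes tested (22.9% lay above in each set). The means were 102 ± 26.2 CPM in cKO and 161 ± 31.4 CPM in controls (SD, n = 3 each). With library set in the model the log2 fold change was -0.48 (SE 0.12, adjusted p = 0.0297, edgeR), and the estimates were -0.50 within set A and -0.47 within set B. The call was lost without control 2 (-0.47), control 3 (-0.47), control 4 (-0.53) or cKO 3 (-0.47) and with sex added to the model (-0.57), while the log2 fold change stayed between -0.58 and -0.40 and the adjusted p between 8.85e-06 and 0.208 over all alternatives. With genotype alone it was -0.65 (SE 0.26, adjusted p = 0.621, edgeR).

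The Prdm1 window is shown as that of the other factor that fell in the model with library set. It lies at chr10:44458699-44458998 on the minus strand. This window is all in lower case because it holds none of the 5 searched letter strings. The windows of Nrl, Nr2e3 and Esrrb also hold none.
Prdm1 promoter: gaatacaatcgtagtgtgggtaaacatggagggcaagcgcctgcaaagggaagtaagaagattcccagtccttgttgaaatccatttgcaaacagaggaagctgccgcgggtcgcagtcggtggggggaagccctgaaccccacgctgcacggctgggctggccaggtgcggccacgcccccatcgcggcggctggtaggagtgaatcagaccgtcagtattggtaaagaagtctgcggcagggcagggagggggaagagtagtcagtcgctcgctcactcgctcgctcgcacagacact
No match says only that these letters are not in this window.

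**Figure D1:**
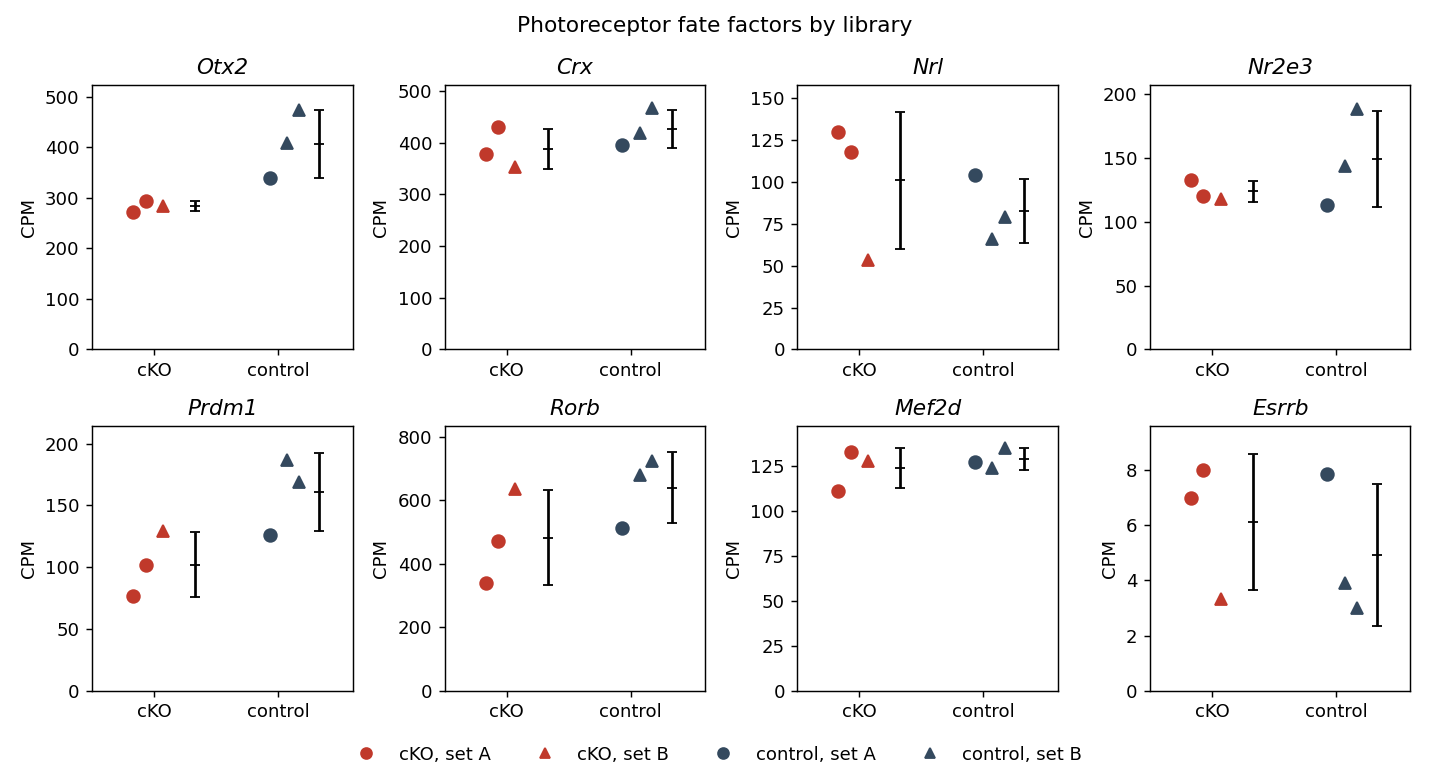
CPM (vertical axes, from 0) of the 8 fate factors in each cKO and control library, with circles for set A and triangles for set B, and with the mean and SD of each group at its right. Otx2 is the only one of the 8 in which all cKO libraries (272 to 293 CPM) lie below all controls (339 to 473 CPM).

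Crx, the direct partner and target of Otx2, did not pass the test. Crx (ENSMUSG00000041578; GRCm38 chromosome 7, 15865947 to 15879968, minus strand) had 379, 430 and 353 CPM in cKO 1, 2 and 3, against 396, 418 and 468 CPM in controls 2, 3 and 4. The groups overlapped, with cKO 2 above 2 of the controls and cKO 3 the lowest library. The means were 388 ± 39.2 CPM in cKO and 427 ± 36.8 CPM in controls (SD, n = 3 each). The log2 fold change with library set was -0.15 (SE 0.11, adjusted p = 0.449, edgeR), made up of 0.03 within set A and -0.33 within set B. With genotype alone it was -0.14 (SE 0.19, adjusted p = 0.828, edgeR).

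The Crx window is shown because it holds the core that Otx2 and Crx bind in duplicate, which 0.359% of all windows do. That share describes the window and tests nothing, because the window was picked for its matches. The window lies at chr7:15879906-15880205 on the minus strand.
Crx promoter: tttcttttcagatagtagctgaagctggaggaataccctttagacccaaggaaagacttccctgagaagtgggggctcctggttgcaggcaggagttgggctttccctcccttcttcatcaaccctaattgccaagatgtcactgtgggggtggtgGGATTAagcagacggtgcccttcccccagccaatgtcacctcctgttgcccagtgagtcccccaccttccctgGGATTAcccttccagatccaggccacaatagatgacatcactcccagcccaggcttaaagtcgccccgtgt
The capitals mark TAATCC on the opposite strand (GGATTA), starting at -94 and -21 from the start site. The other 4 letter strings have no match there. All 8 genes matched the RefSeq table, with 13 windows among them. Outside the windows already given, the matches were TAATTA in 1 further Otx2 window, TGCTGA in 1 Otx2, 1 Rorb and 1 Mef2d window and TATTTTT in 1 Otx2 and 1 Rorb window, and the windows of Nrl, Nr2e3 and Esrrb held none of the 5.

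Nrl and Nr2e3, the factors that fix rod identity, were higher in cKO within set A and lower within set B. Nrl (ENSMUSG00000040632; GRCm38 chromosome 14, 55518978 to 55524981, minus strand) had 130, 118 and 53.7 CPM in cKO 1, 2 and 3, against 104, 65.8 and 79 CPM in controls 2, 3 and 4. Its level followed the library set, with 104 CPM or more in each library of set A and 79 CPM or less in each of set B. Nr2e3 (ENSMUSG00000032292; GRCm38 chromosome 9, 59942771 to 59960659, minus strand) had 133, 120 and 118 CPM in cKO 1, 2 and 3, against 113, 144 and 188 CPM in controls 2, 3 and 4. Both sets' cKO libraries fell between control 2 and the set B controls, so the groups overlapped.

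Neither gene passed the test of genotype. With library set in the model the log2 fold change of Nrl was -0.08 (SE 0.16, adjusted p = 0.804, edgeR), and the estimates were 0.26 within set A and -0.43 within set B. For Nr2e3 it was -0.17 (SE 0.16, adjusted p = 0.575, edgeR), and the estimates were 0.16 within set A and -0.50 within set B. The pattern of all cKO libraries above the control in set A and below the controls in set B, seen in 2 of the 8 factors, was seen in 6.49% of all genes tested. The difference between the sets in the cKO effect (set B minus set A) was -0.69 for Nrl (SE 0.21, unadjusted p = 0.0102, adjusted p = 0.975 in edgeR's test of the interaction over all genes) and -0.65 for Nr2e3 (SE 0.24, unadjusted p = 0.0231, adjusted p = 0.975, edgeR), so neither difference passed. That test called 4 genes of all tested (0.024%), none of them a fate factor. Gm15507 and Gm7616, RNAs that lie within or across the Nr2e3 locus, had 3 to 23 reads per library, at most 0.404% of those of Nr2e3.

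Rorb, the receptor upstream of Nrl, was lower in cKO within both sets but did not pass the test. Within each set 23.8% of all genes tested likewise had cKO below control. Rorb (ENSMUSG00000036192; GRCm38 chromosome 19, 18930605 to 19111196, minus strand) had 339, 471 and 637 CPM in cKO 1, 2 and 3, against 512, 681 and 723 CPM in controls 2, 3 and 4. The groups overlapped through the sets, since every set B library stood above every set A library. The means were 482 ± 149 CPM in cKO and 639 ± 112 CPM in controls (SD, n = 3 each). The log2 fold change with library set was -0.24 (SE 0.13, adjusted p = 0.282, edgeR), and the estimates were -0.34 within set A and -0.14 within set B.

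Mef2d and Esrrb gave the smallest estimates together with Nrl. Mef2d (ENSMUSG00000001419; GRCm38 chromosome 3, 88142372 to 88172086, plus strand) had 111, 133 and 128 CPM in cKO 1, 2 and 3, against 127, 124 and 135 CPM in controls 2, 3 and 4. Its 6 values spread little and the groups overlapped. The log2 fold change with library set was -0.04 (SE 0.09, adjusted p = 0.834, edgeR), a sign that turned to 0.05 with sex added to the model and to 0.01 without cKO 1. The antisense RNA 1700113A16Rik shares 531 exon bases with Mef2d and had at most 2.35% of its reads.

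Esrrb (ENSMUSG00000021255; GRCm38 chromosome 12, 86361117 to 86521628, plus strand) was the scarcest of the 8, with 391, 581 and 98 reads in cKO 1, 2 and 3, against 359, 131 and 91 reads in controls 2, 3 and 4. This came to 6.98, 8.02 and 3.33 CPM in cKO 1, 2 and 3, against 7.84, 3.92 and 3.01 CPM in controls 2, 3 and 4. The level was high in set A and low in set B in both genotypes. With library set in the model its log2 fold change was -0.06 (SE 0.18, adjusted p = 0.873, edgeR), and with genotype alone 0.31 (SE 0.48, adjusted p = 0.841, edgeR).

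Of the 8 factors, 2 fell (Otx2 and Prdm1), 0 rose and 6 missed the threshold in the model with library set. Over all genes 5.63% fell and 6.36% rose, 12% in all. The median log2 fold change was -0.16 over the 8 factors and -0.00098 over all genes tested. Within set B the cKO estimate was above 0 for 0 of the 8 factors and for 8217 of the 16691 genes. Those of Mef2d (-0.02) and Esrrb (-0.06) lay close to 0. Within set A it was above 0 for 3 factors (Crx, Nrl and Nr2e3) and for 8329 of all genes. The median of the 8 was -0.06 within set A and -0.38 within set B. Every set B estimate rests on cKO 3 alone and every set A estimate on control 2 alone, so the 8 do not count as separate observations. The count of falls was 1 without control 2 (Otx2), 0 without control 3, control 4 or cKO 3 and 0 with sex added to the model. With genotype alone 0 of the 8 passed in edgeR, against 0.216% of all genes, and Otx2 and Prdm1 had unadjusted p of 0.0356 and 0.0444. Set A has 1 control and set B 1 cKO library, so a fit without either compares genotypes within the other set alone.

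**Figure D2:**
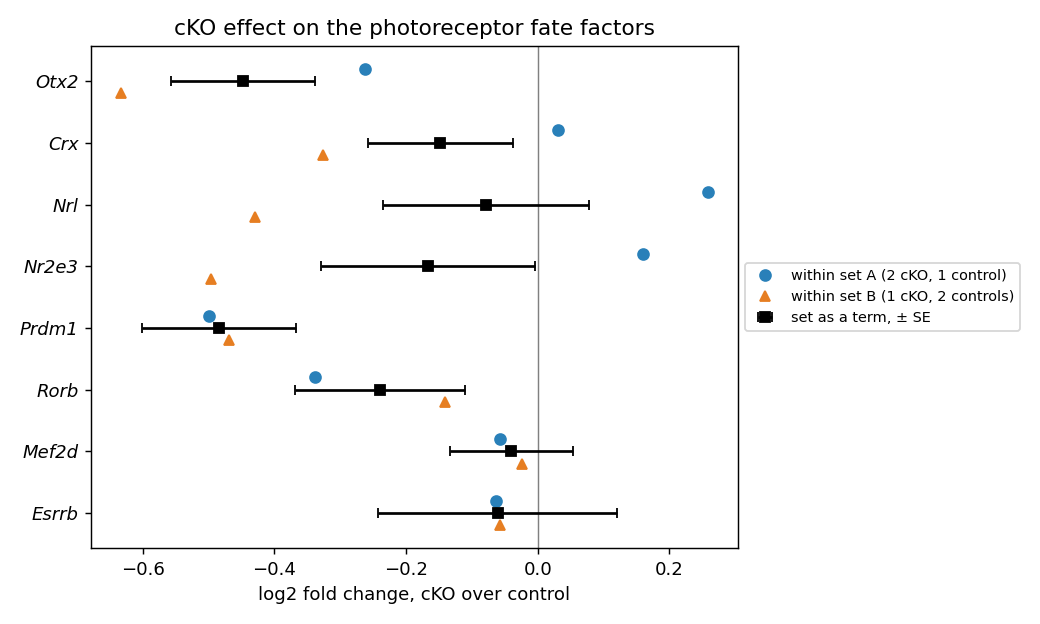
Log2 fold change of cKO over control (horizontal axis) for each fate factor, as black squares with the SE for the model with library set, and as blue circles and orange triangles for the estimates within set A and within set B. Otx2 and Prdm1 lie left of 0 in both sets (-0.26 and -0.63, -0.50 and -0.47). So do Rorb (-0.34 and -0.14), Mef2d (-0.06 and -0.02) and Esrrb (-0.06 and -0.06), none of which passed. Crx, Nrl and Nr2e3 lie right of 0 in set A and left of it in set B.

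4 of the 8 factors also differed between the library sets themselves. With genotype in the model, set B over set A gave a log2 fold change of -1.17 for Esrrb (SE 0.18, adjusted p = 0.000439, edgeR) and -0.86 for Nrl (SE 0.16, adjusted p = 0.00115). Prdm1 (0.51, SE 0.12, adjusted p = 0.00407) and Rorb (0.55, SE 0.13, adjusted p = 0.00468) were higher in set B. Otx2, Crx, Nr2e3 and Mef2d did not pass, with 0.19, -0.02, 0.23 and 0.05. Over all genes 63.7% passed this test, 32.5% higher and 31.2% lower in set B.

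On a scale that allows genes to be compared, CPM per kilobase of annotated exon, Crx was the most abundant factor in every library, followed by Otx2. Over the 6 libraries Crx stood at 129 ± 12.8 CPM per kb, Otx2 at 81.7 ± 19.0, Rorb at 50.6 ± 13.2, Nr2e3 at 40.4 ± 8.31, Prdm1 at 23.6 ± 7.38, Mef2d at 21.1 ± 1.41, Nrl at 16.1 ± 5.31 and Esrrb at 0.912 ± 0.387 (SD, n = 6). Crx exceeded Otx2, Otx2 exceeded Rorb, Nr2e3 exceeded Prdm1 and Nrl exceeded Esrrb in 6 of 6 libraries. Rorb and Nr2e3, Prdm1 and Mef2d, and Mef2d and Nrl did not differ beyond their spread, with the first of each pair higher in 5, 4 and 5 of the 6 libraries. The exceptions were all in set A. Annotated exon length counts every transcript form, so the scale understates genes with long rare exons.

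**Figure D3:**
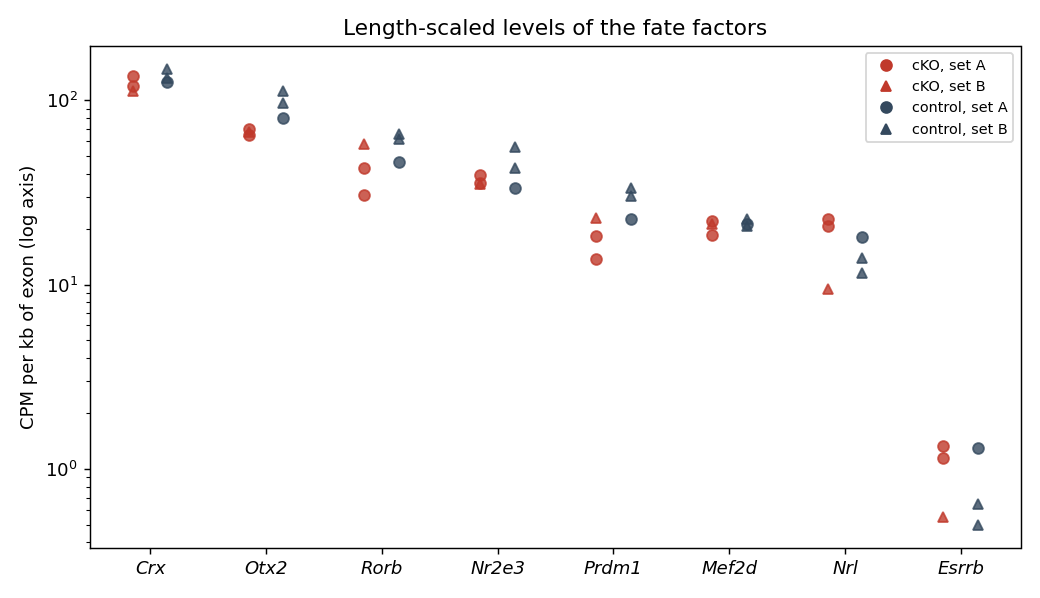
Length-scaled level (CPM per kb of exon, log axis) of each fate factor in the 6 libraries, cKO in red at the left and control in dark blue at the right of each gene, circles for set A and triangles for set B. Crx and Otx2 lead in every library, and Esrrb lies at least 14.0-fold below Nrl in each.

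No ratio between the factors could pass a threshold of 0.05, because 3 against 3 libraries allow no exact permutation p below 0.1. The permutation also took no account of library set. The ratio of the length-scaled levels of Crx and Otx2 was 1.86, 1.96 and 1.66 in cKO 1, 2 and 3, against 1.56, 1.37 and 1.32 in controls 2, 3 and 4. Every cKO ratio lay above every control ratio, with means of 1.83 ± 0.154 in cKO and 1.42 ± 0.128 in controls (SD, n = 3 each). The 2-sided exact permutation p was 0.1, the smallest that 3 against 3 libraries allow, and 6 ratios were computed, picked with their values in view, so this does not pass a threshold of 0.05. Nrl over Crx was 0.190, 0.152 and 0.0845 in cKO 1, 2 and 3, against 0.145, 0.0874 and 0.0937 in controls 2, 3 and 4, and the groups overlapped (exact permutation p = 0.5). Nr2e3 over Nrl was 1.73, 1.72 and 3.71 in cKO 1, 2 and 3, against 1.85, 3.71 and 4.03 in controls 2, 3 and 4, and every ratio of set B lay above every ratio of set A (exact permutation p = 0.3 for genotype).

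**Figure D4:**
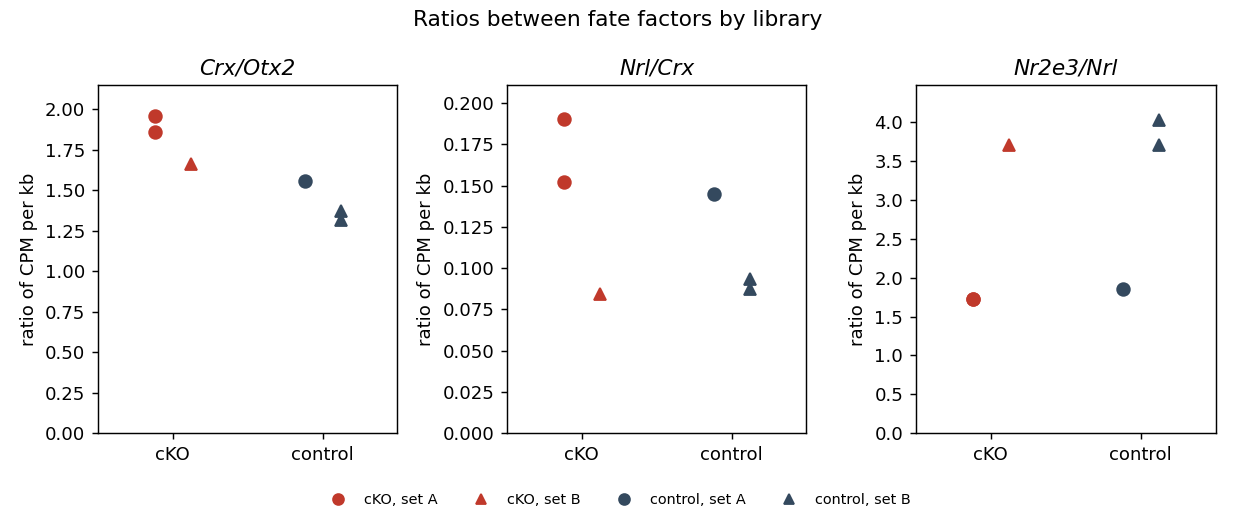
Ratios of length-scaled levels (vertical axes, from 0) between fate factors in each cKO and control library, circles for set A and triangles for set B. Crx/Otx2 is 1.66 to 1.96 in cKO and 1.32 to 1.56 in controls, while Nr2e3/Nrl separates the sets.

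Centred within each library set, the levels of Nrl and Nr2e3 varied together most closely among the 8 (Pearson r = 0.97 of log2 CPM over the 6 libraries, a description, since the libraries share 2 set means). Otx2 and Crx had r = 0.857, Prdm1 and Rorb r = 0.863 and Rorb and Mef2d r = 0.856, whereas Nrl and Prdm1 had r = -0.017. Out of 10996 genes of at least 5 CPM, the genes most like each factor by this measure were Slc38a3 and Nfx1 for Otx2 (r = 0.999 and 0.997), Fkbpl and Cptp for Crx (0.995 and 0.994), Cpsf6 and Far2 for Nrl (0.998 and 0.994) and Rabepk and Tsc22d4 for Nr2e3 (0.996 and 0.995). For Prdm1 they were Tdrkh and Cnot1 (both 0.999), for Rorb Bbx and Dnajb12 (both 0.999), for Mef2d Zfp652 and Lpar6 (0.991 and 0.989) and for Esrrb D17H6S53E and Lef1 (0.989 and 0.985). Each was picked as the highest out of 10996 genes over only 6 libraries, so these r describe the pick and test nothing.

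Among 14 other regulators of photoreceptor formation, 2 rose, 5 fell and 7 did not pass in the model with library set, with a median log2 fold change of -0.097. Over all genes tested 6.36% rose and 5.63% fell. Tbx2, a T-box factor of dorsal retina and of ultraviolet cone fate in fish, fell by 0.85 on the log2 scale (SE 0.09), Rax by 0.75 (SE 0.10), Olig2, a factor of progenitors whose next division yields neurons, by 0.75 (SE 0.10) and Casz1, a zinc finger factor that promotes rod production in late progenitors, by 0.44 (SE 0.08). The call for Casz1 was lost without control 2 (-0.41) or cKO 3 (-0.44), that for Olig2 without control 2 (-0.60), and those for Tbx2, Rax, Olig2 and Casz1 with sex in the model.

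Both regulators that rose are known from cones. Rxrg, the retinoid X receptor of early cones, had 34.1, 30.4 and 19.5 CPM in cKO 1, 2 and 3, against 20.4, 12.9 and 10.7 CPM in controls 2, 3 and 4 (log2 fold change 0.69, SE 0.12, adjusted p = 0.00788, edgeR). Rxrg was above the controls within each set, as were 22.9% of all genes tested. Sall3, a zinc finger factor of cones and horizontal cells, rose by 0.53 on the log2 scale at the edge of the threshold (SE 0.15, adjusted p = 0.04995, edgeR), and missed it with RLE scaling (0.50), in limma-voom (0.53) and without any library but cKO 1 (0.43 to 0.64). Rxrg lost its call without control 2 (0.73) or cKO 3 (0.69). Thrb, the thyroid hormone receptor of cones, gave 0.20 (adjusted p = 0.318), Onecut1 -0.06 (0.863) and Neurod1 -0.30 (0.0965, edgeR). The count that rose was 0 without control 2 or cKO 3, 1 without control 3, control 4 or cKO 2 and 0 with sex added to the model, and the count that fell was 3 without control 2 and 1 with sex added to the model.

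Of 36 photoreceptor genes downstream of Otx2, Crx and Nrl, 2 rose, 1 fell and 33 did not pass in the model with library set. That is near the 12% called over all genes and so says nothing particular about the list, which had a median log2 fold change of 0.16, against -0.00098 over all genes. Crb1, a polarity protein that progenitors and Müller glia also make, had 42.4, 50 and 55 CPM in cKO 1, 2 and 3, against 79.3, 86.9 and 69.5 CPM in controls 2, 3 and 4 (log2 fold change -0.65, SE 0.12, adjusted p = 0.011, edgeR). All cKO libraries lay below all controls for Crb1, as in 5.54% of all genes tested. Guca1b, a guanylate cyclase activator, rose at a low level (1.86 ± 0.915 CPM in cKO and 0.469 ± 0.105 CPM in controls, SD, n = 3 each; log2 fold change 1.63, adjusted p = 0.0215, edgeR), and Kcnv2, a potassium channel subunit, passed at the edge of the threshold (0.49, adjusted p = 0.04998). Calls for Crb1 and Guca1b were lost without control 2 (-0.51 and 1.22) and without cKO 3 (-0.75 and 1.99), that for Kcnv2 with RLE scaling (0.45), in limma-voom (0.44) and without any library but cKO 1 (0.30 to 0.74), and all of them with sex added to the model.

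Members of that list that did not pass included Rcvrn, recoverin (0.45, adjusted p = 0.112), Gnat2, cone transducin (0.42, 0.0702) and Opn1sw, the short-wave cone opsin (0.36, 0.259, edgeR). The sets differed in sign over the list. Within set A the estimate was above 0 for 32 of 36 genes (median 0.41) and within set B for 13 of 36 (median -0.09). Over all 16691 genes these were 8329 and 8217. Every set A estimate is taken against control 2 alone, a male, and every set B estimate rests on cKO 3 alone. The 36 genes therefore do not count as separate observations of a set difference. In the list 20 genes were above 0 in set A and below 0 in set B, as were Crx, Nrl and Nr2e3. Over all genes 2759 of 16691 had that pattern. No gene of the list passed the test of the difference between the sets, in which Gngt1 had the smallest adjusted p (0.228).

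**Figure D5:**
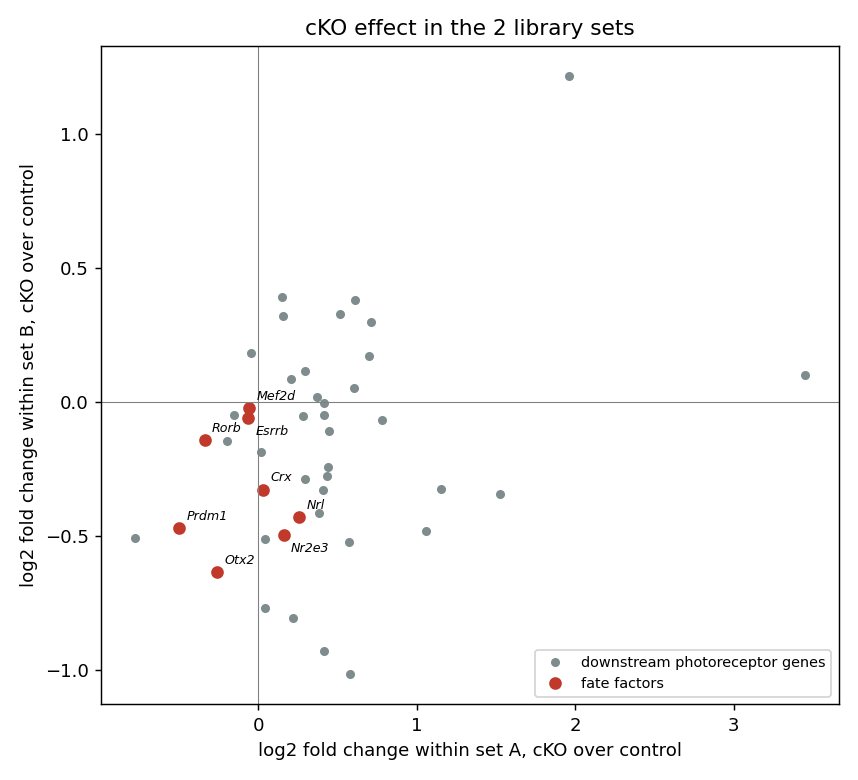
Log2 fold change of cKO over control within set A (horizontal axis) against that within set B (vertical axis), in red for the 8 fate factors and in grey for the 36 downstream photoreceptor genes. All 8 factors lie below 0 on the vertical axis, and 32 of the 36 downstream genes lie right of 0 on the horizontal axis. Control 2 is the only control in set A and cKO 3 the only cKO library in set B.

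Bipolar genes, of the fate that adjoins photoreceptors, were mostly scarce at this age. Of 12 listed, 9 passed the filter, and of these 4 rose, 1 fell and 4 did not pass, where 6.36% of all genes tested rose and 5.63% fell. Trpm1, the channel of ON bipolar cells that pigment cells also make, had 8.71, 10.3 and 17.5 CPM in cKO 1, 2 and 3, against 4.13, 1.2 and 1.56 CPM in controls 2, 3 and 4 (log2 fold change 2.36, SE 0.44, adjusted p = 0.0113, edgeR). All cKO libraries were above all controls for Trpm1, as in 8.38% of all genes tested. Isl1, a LIM factor of ganglion, amacrine and bipolar cells, rose by 0.56 on the log2 scale (adjusted p = 0.0424) and Cabp5, a calcium-binding protein of bipolar cells, by 0.82 (adjusted p = 0.0471, edgeR). Bhlhe23, a factor of rod bipolar cells, had 49 reads over the cKO libraries and 2 over the controls, a ratio of 17.0 (95% counting interval 4.46 to 144). That interval pools the reads of all libraries and leaves out the spread between animals. Bhlhe23 passed the filter through the cKO libraries alone, since the controls had 0.0437, 0 and 0 CPM. Its direction was therefore fixed by the filter, though it counts among the 4 that rose. Its call (adjusted p = 0.0216, edgeR) was lost without control 2 (log2 fold change 7.06), control 3 (3.47), control 4 (3.52) or cKO 3 (2.70). Without cKO 2, and at a mean CPM of at least 1, Bhlhe23 failed the filter and was not tested. Trpm1 lost its call without cKO 3 (1.23), Isl1 without control 3 (0.55), control 4 (0.46) or cKO 3 (0.29) and in limma-voom (0.56), and Cabp5 with RLE scaling (0.78) and without any library but control 3 (0.65 to 0.91). The count of rises was 2 without control 2, control 3 or cKO 2, 1 without control 4, 0 without cKO 3 and 0 with sex added to the model.

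Of 14 paralogs of the 8 factors, 12 passed the filter, and of these 2 rose, 1 fell and 9 did not pass in the model with library set. The shares over all genes tested were 6.36% that rose and 5.63% that fell. Nr2e1 (Tlx), a progenitor relative of Nr2e3, had 83.1, 119 and 172 CPM in cKO 1, 2 and 3, against 196, 274 and 218 CPM in controls 2, 3 and 4 (log2 fold change -0.74, SE 0.16, adjusted p = 0.0203, edgeR). Maf, a relative of Nrl, rose (0.94 on the log2 scale, SE 0.12, adjusted p = 0.00246, edgeR), a call that held in 14 of 14 alternatives, and Mef2c rose with 0.95 (SE 0.20, adjusted p = 0.0192). Maf had 43.4, 41.4 and 163 CPM in cKO 1, 2 and 3, against 22.1, 72.5 and 98.1 CPM in controls 2, 3 and 4. Its groups overlapped, and it was higher in set B (set B over set A 1.95, adjusted p = 2.83e-06, edgeR). Microglia also make Maf and Mef2c, and the summed microglial markers were at 76.3, 76.1 and 58.2 CPM in cKO 1, 2 and 3. Controls 2, 3 and 4 had 35.1, 23.1 and 20.8 CPM of these markers. Mef2c had 3.73, 3.14 and 9.94 CPM in cKO 1, 2 and 3, against 2.21, 4.28 and 4.17 CPM in controls 2, 3 and 4. Among the cKO libraries the microglial sum was lowest in cKO 3, where Maf and Mef2c were highest. All 10 lens markers tested and 4 of 6 endothelial markers also rose, while Kdr fell. The part of microglia, lens or endothelial cells in the rises of Maf and Mef2c was not tested. Otx1, the closest relative of Otx2, was at 3.58 ± 2.03 CPM in cKO and 3.44 ± 0.609 CPM in controls (SD, n = 3 each; log2 fold change 0.19, adjusted p = 0.708, edgeR). Calls for Nr2e1 were lost without control 2 (-0.52), control 3 (-0.71) or cKO 3 (-0.93), and those for Mef2c without control 3 (0.89), control 4 (0.88) or cKO 3 (0.66). With sex added to the model 1 paralog rose and 0 fell.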

How the data were processed

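Retinal RNA of 6 mice was sequenced with an Illumina TruSeq kit, per the labels' protocols. The deposited values are raw read counts per Ensembl gene, made by the authors with STAR and HTSeq on GRCm38, per the submitters' processing notes; for versions and strand, nothing is given in the sources used here, and reads of antisense genes cannot be told apart. Rows that name no gene held 26.41 to 28.76% of counts and stayed out of library sizes and tests. Symbols and exon lengths came from GENCODE vM21 (GRCm38), which matched 37607 of 39179 identifiers.

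The test was edgeR 4.0.16 (R 4.3.3), with filterByExpr by group, TMM scaling, glmQLFit and glmQLFTest, 2-sided and adjusted by Benjamini-Hochberg over 16691 genes, threshold 0.05. Models had genotype alone (residual degrees of freedom 4), genotype with library set (3), and their interaction (2). SE was computed from the fold change and F. Set A holds libraries with over 2.9% of counts in the row of ambiguous reads, a technical measure. CPM uses TMM-scaled gene counts. The fit was tested on simulated data. Sex was read from Xist and 4 Y-linked genes. Groups and label numbers came from titles; libraries were taken as separate animals, as the series text gives 3 mice per group. No 2 libraries of the same group held the same reads: within groups, chi-square per degree of freedom was 23.0 to 532. Pairs of a cKO and a control library were not compared in this way. Depth makes counting error small for all but Esrrb.

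The members and gene lists were chosen with earlier results of these data known. The naming rule was all 8 members, list genes past the threshold with library set plus up to 4 of smallest p, the 2 genes most like each member by r of log2 CPM (prior count 2) at a mean of at least 5 CPM, and overlapping genes. The ratios and other genes named were picked with their values in view. Alternatives were RLE or no scaling, no filter or a mean CPM of at least 1, DESeq2 1.42.0, limma-voom (limma 3.58.1), a block for the number in the titles, each library left out in turn, and sex as a further term. Gene list counts without single libraries were added after seeing the data. Some listed genes enter the counts but are not reported here by name.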

Additional observations from a re-analysis of the deposited data

How the results depend on the processing

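With library set as a term, 2001 genes were called, against 3063 with no filter, 236 with sex as a further term and 310 (without cKO 3) to 2707 (without cKO 1) with single libraries left out; DESeq2 called 1204 higher and 1672 lower. With genotype alone 36 were called, against 468 in DESeq2, 2040 with the replicate block and 0 to 36 with single libraries left out. The interaction called 4 genes, against 8 with no scaling and 35 in DESeq2. Otx2 and Prdm1 kept their direction in all 14 alternatives with set and passed in 10 and 9 of them, failing where the report says. Only numbers 2 and 3 occur in both genotypes, and each such pair shares a library set; same-numbered libraries deviated together (r = 0.774 and 0.691), but so did pairs with other numbers within a set (0.714 and 0.689). Each number lies within 1 library set, so the fit with the label number as a replicate block already accounts for set, is the same fit for both comparisons and takes the genotype effect from pairs 2 and 3 alone. This block fit leaves fewer residual degrees of freedom than the model with set and uses the same libraries, so its calls are no separate support. It called 2040 genes, Otx2 (-0.37, adjusted p = 0.0362, edgeR) and Prdm1 (-0.42, adjusted p = 0.0196) among them, as the model with set did and genotype alone did not. Of the named list genes called with set, it did not call Guca1b (1.44, adjusted p = 0.0593), Kcnv2 (0.47, 0.0959), Isl1 (0.42, 0.124), Cabp5 (0.56, 0.0528), Bhlhe23 (3.67, 0.0596) and Mef2c (0.87, 0.0724, edgeR).

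Signs turned for estimates near 0. With set, Mef2d gave 0.054 with the replicate block and 0.052 with sex, and with single libraries left out Mef2d ranged from -0.095 to 0.014, Esrrb from -0.14 to 0.0088, Nrl from -0.43 to 0.29, Crx from -0.33 to 0.058 and Nr2e3 from -0.50 to 0.19. With genotype alone, Mef2d gave 0.045 with no scaling and 0.054 with the replicate block, where Nrl gave -0.044 and Esrrb -0.086, and Mef2d ranged from -0.11 to 0.017 with single libraries left out. For the interaction, RLE scaling, no scaling and DESeq2 gave -0.010, -0.025 and -0.010 for Prdm1, -0.0068, -0.021 and -0.0068 for Mef2d and -0.035, -0.050 and -0.034 for Esrrb. The cause was not tested. Leaving out control 2 or cKO 3 removes the only library of its genotype in its set.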
